A study of Homo sapiens with 4 samples.

Results

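The collagen gene family was examined in 4 RNA-seq libraries of glioblastoma cells. The 58226 Ensembl gene IDs listed in the files were matched to GENCODE 29, and every protein-coding gene whose symbol is COL, a number, A and a number was taken. This gave 44 genes, all of them listed in the files, among 19791 protein-coding genes. U87MG is an established human glioblastoma cell line, and R-U87MG is its temozolomide (TMZ)-resistant derivative, kept in 50 μM TMZ. R-U87MG cells received a pool of non-targeting siRNAs (si-NC) or siRNAs against HDAC6, a cytoplasmic deacetylase (si-HDAC6). Parental U87MG cells received si-NC or siRNA against LINC00461, a long noncoding RNA (si-LINC00461). For LINC00461 the study lists 1 target sequence. RNA was collected 72 h after the siRNAs were given. Each condition was 1 library, so no spread between replicates exists, no p-value is given, and each interval below covers counting error only. R-U87MG is 1 derived line, and both knockdowns are transient and were made in different lines. These libraries are of whole cultures, in which fewer cells of a type and less RNA per cell cannot be told apart.

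Collagens are secreted or membrane-anchored proteins in which 3 chains wind around each other into a rope-like helix. The winding needs glycine, the smallest amino acid, at the first place of each amino acid triplet, followed by any amino acids (X and Y), often proline and hydroxyproline. Fibrillar collagens keep this repeat unbroken and form the tensile fibrils of bone, skin and tendon. Type VI collagen forms beaded microfilaments around cells, type IV forms the sheet of basement membranes, and the fibril-associated collagens with interrupted helices (FACIT) sit on the surface of fibrils. Normal brain tissue holds little fibrillar collagen outside its vessels and meninges, whereas glioblastoma lines with mesenchymal features often make it.

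The repeat that defines the family is visible in the coding sequence of these genes, which is shown because every class holds a run of it. The exon lengths that go with it differed by class. Glycine is written by the codons GGN, so a collagen repeat reads as a run of codon triplets that each open with GGN. In the longest coding transcript of each gene, 1229 of 1920 wholly coding exons of the collagen genes (64.0%) were a multiple of 9 bases long, against 13.5% of the 153534 such exons of other protein-coding genes. An exon of exactly 54 bases, which is 6 repeats, made up 24.7% of the collagen exons and 0.401% of the others. By class the share was 48.6% in fibrillar, 26.8% in FACIT and 4.21% in type IV genes. The 3 short-chain network genes had 0 wholly coding exons. From 4 genes that the results turn on, the first 54-base exon with GGN at each of its 6 repeats is printed. Glycine codons are in capitals and coordinates are on GRCh38, the build of GENCODE 29.
COL1A1 exon 8, chr17:50197949-50198002, minus strand: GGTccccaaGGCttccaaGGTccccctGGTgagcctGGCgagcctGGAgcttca
COL1A2 exon 8, chr7:94404693-94404746, plus strand: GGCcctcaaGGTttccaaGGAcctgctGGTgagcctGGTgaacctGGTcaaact
COL5A3 exon 15, chr19:9996066-9996119, minus strand: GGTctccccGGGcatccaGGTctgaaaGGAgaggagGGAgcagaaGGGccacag
COL6A3 exon 16, chr2:237361121-237361174, minus strand: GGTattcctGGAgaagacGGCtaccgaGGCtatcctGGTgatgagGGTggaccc
The 4 exons were chosen for carrying GGN at each of their 6 repeats, so this is no result. The COL1A1 and COL1A2 exons, from the partner chains of type I collagen, hold the same place in their genes, exon 8. The longest unbroken run of such repeats differed by class. It was 216 to 343 repeats in the 11 fibrillar genes, 87 in COL6A1 and COL6A2, 45 in COL6A3, and 38 to 66 in the 6 type IV genes, whose helix is interrupted many times. In COL5A3 it was 337 repeats, and 31 of its exons were of 54 bases. COL26A1, with 23 repeats, had the shortest.

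Most of the family was silent or faint in these cells, and a few genes carried nearly all of the signal. Of the 44 genes, 3 had no fragment in any library, 30 had at least 1 fragment in all 4, and 10 had at least 100 CPM (counts scaled to the same library size) in all 4. Collagen transcripts made up 0.619% of all fragments in R-U87MG si-NC, 0.663% in R-U87MG si-HDAC6, 1.38% in U87MG si-NC and 1.58% in U87MG si-LINC00461. The type I chains COL1A1 and COL1A2, the type V chain COL5A1 and the type VI chains COL6A1, COL6A2 and COL6A3 together held between 84.4% and 89.7% of the collagen fragments. Beaded-filament genes were 60.0%, 61.1%, 47.9% and 58.8% of collagen fragments in that order of libraries, and fibrillar genes 28.1%, 26.9%, 43.7% and 33.9%. The parental control thus had the largest fibrillar share, and in the other 3 libraries the beaded filament was well over the fibrillar class.

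**Figure D1:**
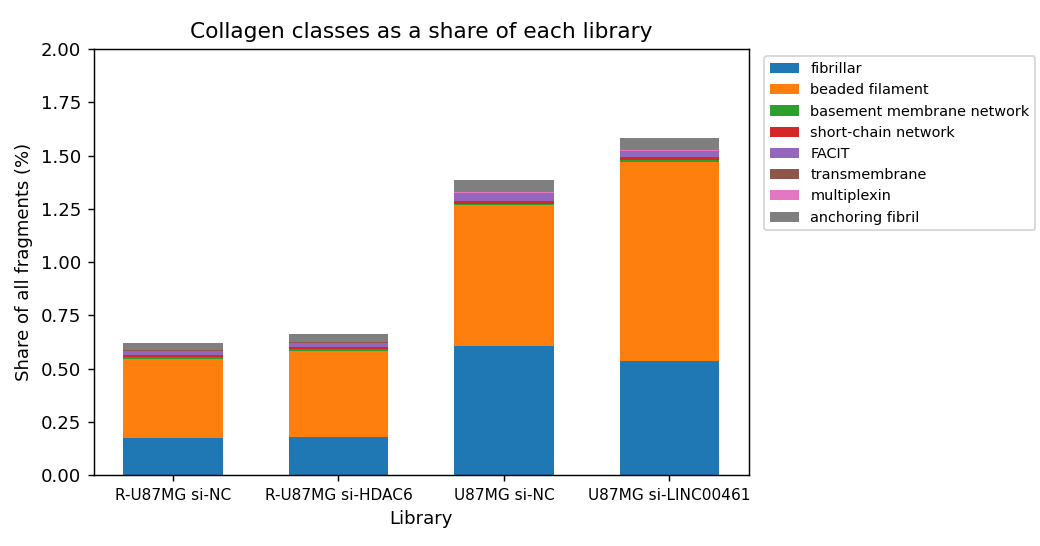
Share of all fragments (%) taken by each collagen class in the 4 libraries, as stacked bars, 1 library each. The whole collagen share is 0.619% and 0.663% in the R-U87MG libraries and 1.38% and 1.58% in the U87MG libraries, and fibrillar and beaded-filament genes fill most of every bar.

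Levels of different genes were compared as TPM, fragments per exon length scaled to the same total in each library. By this measure the type VI chains COL6A1 and COL6A2 had the highest levels in all 4 libraries. COL6A1 stood at 610, 751, 1158 and 2502 TPM and COL6A2 at 704, 846, 1129 and 2398 TPM in R-U87MG si-NC, R-U87MG si-HDAC6, U87MG si-NC and U87MG si-LINC00461. COL6A3, the longest of the 3 chains, stood at 420, 413, 804 and 634 TPM. With the length of the longest coding transcript in place of all exons, COL6A3 was at 1078 and COL6A1 at 1071 TPM in U87MG si-NC. Among fibrillar genes, COL1A1 was at 195, 191, 791 and 680 TPM, COL1A2 at 243, 244, 645 and 726 TPM, and COL5A1, a chain of the type V collagen that nucleates type I fibrils, at 154, 159, 805 and 498 TPM. COL7A1, which makes the anchoring fibrils under epithelia, was well expressed at 122, 148, 206 and 223 TPM. COL5A2, the partner of COL5A1, had 96.1, 114, 151 and 168 TPM. COL27A1, a fibrillar chain of cartilage, had 6.41, 7.34, 26.1 and 24 TPM.

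The remaining classes were led by 1 or 2 genes each. COL8A1, a network-forming chain known from the cornea and vessel wall, stood at 46.2, 46.8, 64.1 and 67.6 TPM, while COL10A1, the collagen of hypertrophic cartilage, did not exceed 1.63 TPM. The FACIT genes COL16A1 and COL12A1 had 49.1, 47.3, 79.2 and 55.1 TPM and 32.2, 30.3, 59.0 and 42.2 TPM. COL13A1, a transmembrane collagen of cell adhesion sites, had 6.73, 6.61, 10.9 and 7.74 TPM. COL17A1, the transmembrane collagen of hemidesmosomes, had 3.44, 3.01, 1.85 and 0.863 TPM. COL15A1, a basement membrane-zone multiplexin, had 2.57, 2.80, 30.9 and 17.8 TPM, so it was low in both R-U87MG libraries. In the basement membrane class, COL4A5 and COL4A6 led with 6.85, 7.58, 14.2 and 24.6 TPM and 10.5, 10.6, 5.46 and 8.29 TPM. COL4A1 and COL4A2, the chains of nearly all basement membranes, did not exceed 0.305 and 3.57 TPM.

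The other 17 genes stayed under a mean of 1 CPM in all comparisons, with at most 19 fragments in any library, and were not compared. Those with a fragment somewhere were COL2A1, COL24A1, COL4A1, COL8A2, COL6A5, COL6A6, COL14A1, COL19A1, COL20A1, COL21A1, COL25A1, COL26A1, COL28A1 and COL18A1. COL9A1, COL23A1 and COL11A2 were listed at 0 in all 4 libraries, and a count of 0 allows up to 0.150 to 0.238 CPM. For COL11A2 the 0 carries no information. On chromosome 6 from 29 to 34 Mb, where it lies, 125 of 180 protein-coding genes (69.4%) were at 0 in all libraries, against 16.3% of all protein-coding genes, and these included the ribosomal protein gene RPS18 and the tubulin gene TUBB. The collagen receptor gene DDR1 lies there too and was also at 0. COL18A1, the precursor gene of endostatin, had 2 to 14 fragments, and 16.4% of its exon bases are shared with SLC19A1 on the opposite strand. The sources used here do not say whether the counting used strand.

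The libraries held 12596072 to 20027866 fragments. For HDAC6 the R-U87MG control held 296 fragments and the knockdown 67, with a log2 ratio of −1.74 (95% interval −2.16 to −1.36). LINC00461 had 363 fragments in U87MG si-NC and 73 in si-LINC00461, a log2 ratio of −2.12 (−2.51 to −1.76). Of 8 astrocyte or glioma markers, VIM, CD44, NES and OLIG2 were detected at 15 fragments or more in every library, whereas the defining glial markers GFAP, S100B, SOX2 and FABP7 did not exceed 13 fragments in any.

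In R-U87MG, the question was whether loss of HDAC6 moves collagen transcripts. No collagen gene reached a 2-fold difference between si-HDAC6 and si-NC. Of all 13120 genes compared, 0.747% differed downwards by 2-fold or more and 0.694% upwards, so a count of 0 among 23 collagen genes is near that background. The median log2 ratio of the 23 was 0.01 and that of all genes −0.01. The main chains hardly differed. COL1A1 stood at 463 CPM with si-NC and at 455 CPM with si-HDAC6, a log2 ratio of −0.04 (−0.09 to 0.01), and COL1A2 had 657 and 662 CPM, a log2 ratio of 0.00 (−0.04 to 0.04). COL5A1 was at 417 and 431 CPM, a log2 ratio of 0.04 (−0.01 to 0.09). These intervals leave no room for a 2-fold difference between these libraries.

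The largest ratio after HDAC6 knockdown was that of COL3A1, the fibrillar collagen that accompanies type I in vessels and skin. Its fragments numbered 122 with si-NC and 52 with si-HDAC6, for a log2 ratio of −0.83 (−1.34 to −0.36), and 155 genes of the 13120 had a lower ratio. COL4A3 followed with 32 and 15 fragments, but its interval reached from −1.69 to 0.23. On the other side, COL6A1 was 1.22-fold higher (791 and 975 CPM), COL7A1 1.20-fold higher (329 and 398 CPM), COL6A2 1.19-fold higher (920 and 1107 CPM) and COL5A2 1.18-fold higher (174 and 206 CPM). Their intervals lay above 0 and far from 2-fold. For 6 of the 23 genes the interval excluded 0, these 4 above it and COL3A1 and COL6A3 below it. COL6A3 had 2002 and 1971 CPM, a log2 ratio of −0.03 (−0.06 to −0.01). The other genes compared, COL4A2, COL4A4, COL4A5, COL4A6, COL8A1, COL9A3, COL10A1, COL12A1, COL13A1, COL15A1, COL16A1, COL17A1 and COL27A1, lay between −0.20 and 0.25.

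In parental U87MG, si-LINC00461 and si-NC differed in more collagen genes, in both directions. Of 24 genes compared, 6 were at least 2-fold higher and 2 lower by as much. Of all 13210 genes compared, 5.42% were higher by that margin and 8.17% lower. The higher group was COL5A3, COL22A1, COL3A1, COL4A4, COL6A1 and COL6A2, and the lower group COL9A2 and COL17A1. The median log2 ratio of the 24 was 0.12, and that of all genes 0.00. COL4A4 and COL5A3 were under 1 CPM in si-NC and entered the comparison only through si-LINC00461.

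COL5A3 gave the widest difference of the family. It encodes a further chain of type V collagen and lies at chr19:9959561-10010471 on the minus strand. It had 8 fragments in R-U87MG si-NC, 5 in R-U87MG si-HDAC6, 20 in U87MG si-NC and 1056 in U87MG si-LINC00461. Only the last library was high. COL5A3 was 58.7-fold higher there than in U87MG si-NC, a log2 ratio of 5.87 (5.28 to 6.63), and 10 of the 13210 genes had a higher ratio. Of its exon bases, 4% are shared with an antisense gene that had no fragment in any library. Its level of 36.6 TPM stayed below the 498 TPM of COL5A1 and the 168 TPM of COL5A2 in the same library.

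The type VI chains parted. COL6A1 (chr21:45981737-46005050) had 29304 fragments in U87MG si-NC and 57168 in si-LINC00461, and COL6A2 (chr21:46098097-46132849) had 28810 and 55239. The log2 ratios were 1.15 (1.13 to 1.17) and 1.13 (1.11 to 1.15). These are neighbours on chromosome 21, transcribed in the same direction with starts 116360 bases apart. COL6A3 (chr2:237324003-237414375), which joins them in the type VI molecule, had 74801 and 53250 fragments, a log2 ratio of −0.30 (−0.32 to −0.29). It was 1.23-fold lower where its partners were 2.22-fold and 2.18-fold higher. COL6A5, an alternative to COL6A3, had 0 fragments in the other 3 libraries and 8 in si-LINC00461, too few for comparison.

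Smaller numbers stood behind the other calls. COL22A1, a FACIT of tissue junctions, had 0 fragments in both R-U87MG libraries, 82 in U87MG si-NC and 342 in si-LINC00461, and was 4.73-fold higher in si-LINC00461, a log2 ratio of 2.24 (1.90 to 2.61). COL3A1 had 23 and 62 fragments, a log2 ratio of 1.60 (0.91 to 2.38). COL4A4, a basement membrane chain of kidney and inner ear, had 15 and 30 fragments, a log2 ratio of 1.16 (0.25 to 2.19). The intervals of COL3A1 and COL4A4 reached below 2-fold. COL9A2, a FACIT chain of cartilage, had 95 fragments in si-NC and 25 in si-LINC00461 and was 3.29-fold lower, a log2 ratio of −1.72 (−2.44 to −1.09). COL17A1 had 62 and 26 fragments, a log2 ratio of −1.05 (−1.79 to −0.38), an interval that reached above the 2-fold line.

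Below the 2-fold line, the chains of the type I and type V fibril differed in direction. COL5A1 stood at 2130 CPM with si-NC and 1342 CPM with si-LINC00461, a log2 ratio of −0.65 (−0.67 to −0.63), while COL5A2 had 266 and 302 CPM, a log2 ratio of 0.20 (0.14 to 0.25). COL1A1 had 1838 and 1606 CPM, a log2 ratio of −0.18 (−0.20 to −0.16), and COL1A2 had 1702 and 1948 CPM, a log2 ratio of 0.21 (0.19 to 0.23). The X-linked basement membrane chains COL4A5 and COL4A6 were both higher, with log2 ratios of 0.83 (0.70 to 0.96) and 0.64 (0.40 to 0.89). COL15A1 had 48.6 and 28.5 CPM, a log2 ratio of −0.75 (−0.91 to −0.60). COL12A1, COL13A1 and COL16A1 lay between −0.48 and −0.44, and COL4A2, COL7A1, COL8A1, COL11A1 and COL27A1 between −0.10 and 0.15. By class, the summed basement membrane fragments had a log2 ratio of 0.75 (0.65 to 0.86), the beaded filament 0.50 (0.49 to 0.52), the fibrillar class −0.16 (−0.17 to −0.15) and FACIT −0.38 (−0.43 to −0.33).

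**Figure D2:**
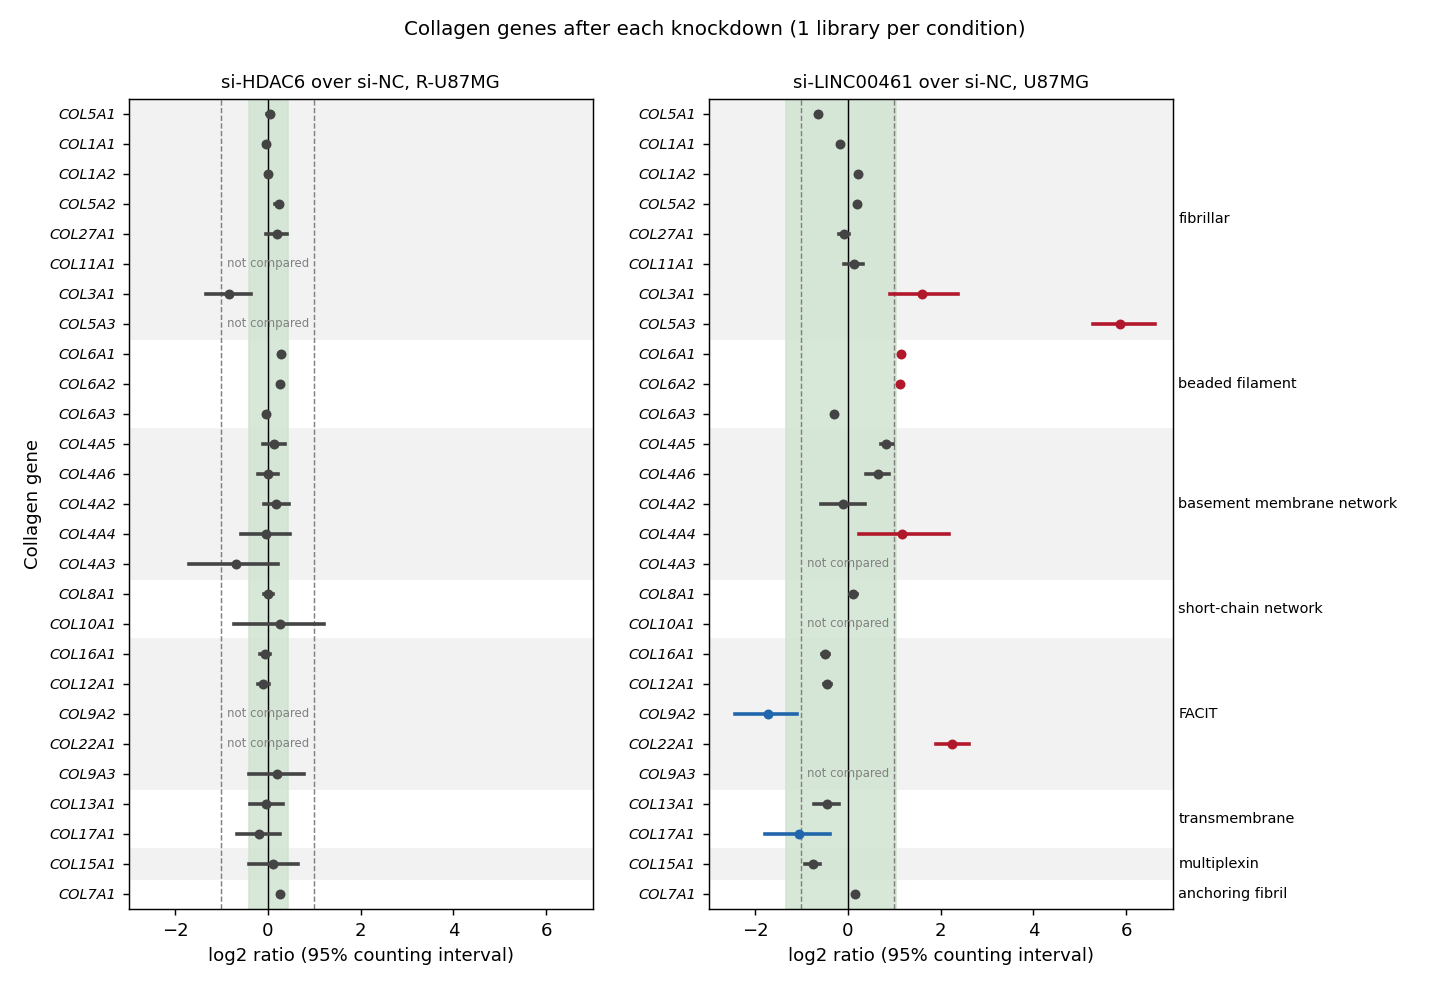
log2 ratio of each collagen gene after si-HDAC6 in R-U87MG (left) and si-LINC00461 in U87MG (right) against si-NC, with 95% counting intervals. Dashed lines mark 2-fold, the green band spans the 5th to 95th percentile of all genes compared, red is 2-fold or more above si-NC and blue 2-fold or more below. The HDAC6 ratios stay between −0.83 and 0.29, whereas the LINC00461 ratios run from −1.72 to 5.87.

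Some genes listed as markers of other cell types also differed with si-LINC00461, and others did not. Of 9 fibroblast or pericyte markers, 7 were compared, and 4 were at least 2-fold higher and 0 lower, beside 5.42% and 8.17% of all genes. The summed level of the 9 was 209 CPM with si-NC and 518 CPM with si-LINC00461. PDGFRA had 62 and 961 fragments and PDGFRB 3182 and 6995. Within the sum, PDGFRB was 159 and 393 CPM and PDGFRA 3.10 and 54.1 CPM. FAP (292 and 503 fragments), RGS5 (85 and 85) and ACTA2 (451 and 373) were compared and stayed under 2-fold. THY1, with 10 and 7 fragments, and DES, with 3 and 9, were near 0. Of 5 endothelial markers, 2 were compared, and the summed level was 7.64 and 30.2 CPM. PECAM1 had 52 and 433 fragments, whereas TEK, the other gene compared, had 85 and 74, CDH5 had 7 and 14, VWF 8 and 16, and CLDN5 1 and 0. The summed level of 8 astrocyte or glioma markers was 7975 CPM with si-NC and 4943 CPM with si-LINC00461, with VIM at 126719 and 56351 fragments. The other compared members, CD44 and NES, had log2 ratios of 0.12 and 0.03. Of 5 leukocyte markers, CD68 was 1 to pass the filter, at 8491 and 13054 fragments, and PTPRC had 0 and 2. Of 4 oligodendrocyte markers, MBP was the highest at 37 and 26 fragments. The part of these markers in the collagen ratios was not tested. In R-U87MG the same 9 fibroblast or pericyte markers summed to 112 CPM with si-NC and 111 CPM with si-HDAC6.

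The promoters of COL5A3, COL6A2 and COL6A3 are printed because COL6A2 and COL6A3 encode partner chains with opposite ratios and COL5A3 had the highest ratio. They are the 250 bases before the RefSeq start site on GRCh38.p14, read 5′ to 3′ on the strand of the gene. RefSeq promoters were found for 32 of the 44 genes. Capitals mark matches to 3 common promoter motifs on either strand. The GC box was searched as GGGCGG. The CCAAT box was searched by the letters of its name. The TATA box was searched as TATAAA. In these 3 promoters no match of a motif overlaps that of another.
COL5A3, chr19:10010505-10010754, minus strand: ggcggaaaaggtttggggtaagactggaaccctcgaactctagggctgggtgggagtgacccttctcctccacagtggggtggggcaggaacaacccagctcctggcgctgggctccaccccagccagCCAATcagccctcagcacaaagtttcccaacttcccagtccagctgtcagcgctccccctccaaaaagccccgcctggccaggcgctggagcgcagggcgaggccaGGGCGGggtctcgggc
COL6A2, chr21:46097862-46098111, plus strand: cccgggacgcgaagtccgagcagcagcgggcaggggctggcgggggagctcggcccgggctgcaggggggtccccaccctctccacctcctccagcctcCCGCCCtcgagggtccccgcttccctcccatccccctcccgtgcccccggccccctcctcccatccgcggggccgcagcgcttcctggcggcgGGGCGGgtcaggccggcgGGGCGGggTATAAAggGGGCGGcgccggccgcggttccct
COL6A3, chr2:237414165-237414414, minus strand: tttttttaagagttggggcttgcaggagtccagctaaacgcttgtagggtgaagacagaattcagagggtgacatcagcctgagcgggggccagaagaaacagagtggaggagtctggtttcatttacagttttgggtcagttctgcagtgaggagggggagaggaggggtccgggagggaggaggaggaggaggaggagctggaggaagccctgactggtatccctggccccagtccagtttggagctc
The COL6A2 stretch held 4 GC boxes and 1 TATA box and was 79.6% G or C. The COL5A3 stretch held 1 GC box and 1 CCAAT box and was 66.0% G or C. The COL6A3 stretch held none of these letters and was 56.0% G or C. Among 27305 promoters of the same length, 42.3% held a GC box, 33.0% a CCAAT box and 11.1% a TATA box, and among the 32 collagen promoters the numbers were 18, 9 and 5. The median share of G or C was 65.2% in the collagen promoters and 58.0% in all. These matches are a description of the letters and say nothing about which factors bind.

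Because collagen chains assemble in fixed proportions, the ratio of partner chains inside a library was followed next. Such a ratio does not depend on how libraries are scaled against each other. COL6A1 and COL6A2 stayed close. The ratio of their levels per exon length was 0.867, 0.888, 1.03 and 1.04 in R-U87MG si-NC, R-U87MG si-HDAC6, U87MG si-NC and U87MG si-LINC00461, and the ratio changed by a factor of 1.02 (0.997 to 1.04) with si-LINC00461. COL6A3 relative to COL6A1 was 0.689, 0.550, 0.695 and 0.253. The parental and resistant controls were alike, with a factor of 0.991 (0.968 to 1.02) between them. The ratio was 1.25-fold lower with si-HDAC6 (1.22 to 1.29) and 2.74-fold lower with si-LINC00461 (2.69 to 2.79). With the length of the longest coding transcript in place of all exons, COL6A3 relative to COL6A1 was 0.998, 0.797, 1.01 and 0.367, which moves the level of the ratio and not its change.

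Type V chains were the most uneven fibrillar pair. COL5A1 relative to COL5A2 was 1.60, 1.40, 5.34 and 2.96, so the parental control had the highest excess of COL5A1. The ratio was 1.80-fold lower with si-LINC00461 (1.73 to 1.88), 1.14-fold lower with si-HDAC6 (1.07 to 1.22) and 3.34-fold lower in R-U87MG si-NC than in U87MG si-NC (3.17 to 3.52). COL1A1 relative to COL1A2, which join in a ratio of 2 to 1 in the usual type I molecule, was 0.802, 0.781, 1.23 and 0.937. It was 1.31-fold lower with si-LINC00461 (1.28 to 1.34), and with si-HDAC6 its change by a factor of 0.974 (0.931 to 1.02) included no change. By the longest coding transcript the type I ratio in U87MG si-NC was 0.868, so which of its chains stood higher rests on the length used.

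The type IV genes lie head to head in pairs, which makes their ratios of interest. The starts of COL4A5 and COL4A6 are 347 bases apart on chromosome X, and those of COL4A3 and COL4A4 112 bases apart on chromosome 2. COL4A5 relative to COL4A6 was 0.651 (0.561 to 0.756) in R-U87MG si-NC and 2.60 (2.25 to 3.02) in U87MG si-NC, a 3.99-fold change (3.23 to 4.93). By the longest coding transcript the ratios were 0.867 (0.746 to 1.01) and 3.46 (2.99 to 4.02), so U87MG had more of COL4A5 by both lengths, whereas in R-U87MG the excess of COL4A6 rests on the length used. With neither knockdown did the interval of the change exclude 1: the factor was 1.09 (0.873 to 1.37) with si-HDAC6 and 1.14 (0.941 to 1.38) with si-LINC00461. COL4A1 was well below COL4A2 in every library, at ratios of 0.0966, 0.0620, 0.211 and 0.350, on 10 to 19 fragments of COL4A1. COL4A3 relative to COL4A4 was 0.465 (0.298 to 0.711) in R-U87MG si-NC, and U87MG si-NC had 0 fragments of COL4A3 and 15 of COL4A4. COL8A1 exceeded COL8A2 by 109-fold (63.7 to 205) in U87MG si-NC, and by 180-fold by the longest coding transcript.

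**Figure D3:**
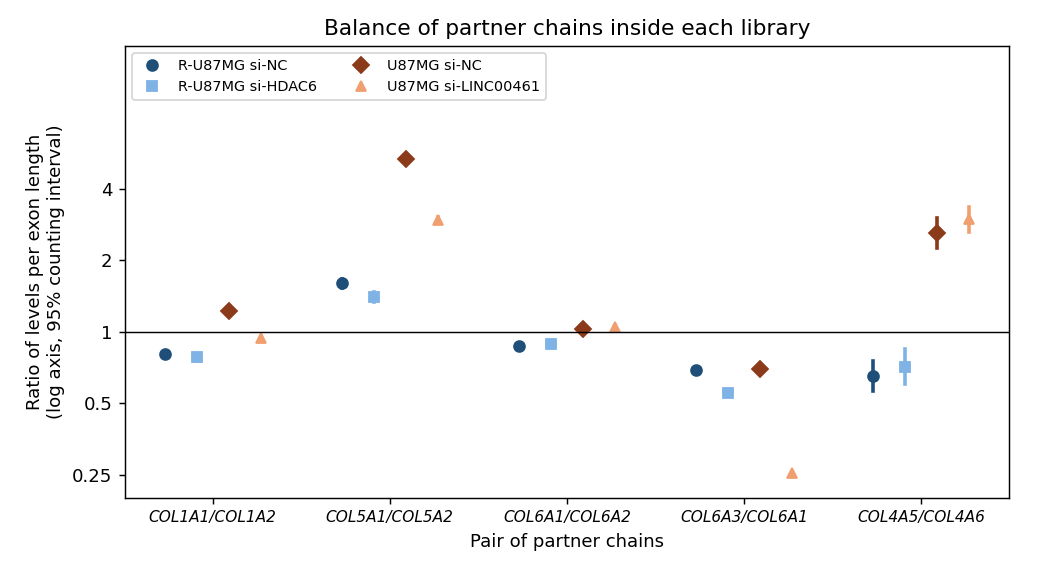
Ratio of levels per exon length (log axis) of 5 pairs of partner chains in each library, with 95% counting intervals, which are often narrower than the symbol. COL6A3/COL6A1 is 0.253 in U87MG si-LINC00461 against 0.550 to 0.695 elsewhere, and COL4A5/COL4A6 is under 1 in both R-U87MG libraries and over 1 in both U87MG libraries.

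The control libraries of R-U87MG and U87MG allowed the lines to be set side by side, though the derivation of the line, its culture in TMZ and the library cannot be told apart. This comparison uses R-U87MG si-NC and U87MG si-NC, which also serve as the controls of the knockdowns. In R-U87MG, 12 of 24 collagen genes compared were lower by 2-fold or more and 4 higher, and the median log2 ratio was −1.04. Of all 13349 genes, 15.0% were lower and 11.2% higher by that margin, with a median of 0.02. Scaling by total counts shifts the median of all genes by 0.26. Relative to that scaling 9 genes were lower and 4 higher, COL6A1, COL6A3 and COL12A1 being those no longer 2-fold lower. COL11A1, COL22A1, COL9A2, COL9A3 and COL4A4 were under 1 CPM in 1 of the libraries and entered the comparison only through the other.

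In number of fragments the fibrillar class differed most. Its sum was 28959 in R-U87MG si-NC and 121076 in U87MG si-NC, a log2 ratio of −2.06 (−2.08 to −2.04). By ratio the multiplexin class differed more, with 71 and 980 fragments, a log2 ratio of −3.77 (−4.15 to −3.43). COL5A1 had 6932 and 42651 fragments, a log2 ratio of −2.62 (−2.65 to −2.58). COL1A1 had 7710 and 36813, a log2 ratio of −2.25 (−2.29 to −2.22), and COL1A2 10929 and 34097, a log2 ratio of −1.64 (−1.67 to −1.61). COL27A1 had 362 and 1730 fragments and was 4.76-fold lower. COL11A1, the cartilage chain that sets fibril width, had 2 and 407 fragments, a log2 ratio of −7.35 (−10.72 to −5.80). COL3A1 went the other way, with 122 and 23 fragments, a log2 ratio of 2.39 (1.76 to 3.12). COL5A2 had 2889 and 5325 fragments, a log2 ratio of −0.88 (−0.94 to −0.81).

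Outside the fibrils the lines differed in type IV and FACIT chains, in both directions. COL4A2 had 244 fragments in R-U87MG and 87 in U87MG, a log2 ratio of 1.49 (1.13 to 1.86). COL4A4 had 76 and 15, a log2 ratio of 2.31 (1.53 to 3.25), and COL4A5 had 328 and 798, a log2 ratio of −1.28 (−1.47 to −1.09). Of the FACIT chains of type IX collagen, COL9A3 had 53 fragments in R-U87MG and 1 in U87MG, a log2 ratio of 5.16 (3.19 to 11.06). COL9A2 had 4 and 95, a log2 ratio of −4.40 (−6.47 to −3.16). Each of these passed the filter only through the line where it was high, and COL9A1 had 0 fragments in both lines. COL22A1 had 0 fragments in R-U87MG and 82 in U87MG. It was at least 27.3-fold lower when the 0 is set at the floor of 3 counts, and the upper end of its 95% interval, which allows for more than 3, was a log2 ratio of −4.44. COL15A1 had 69 and 974 fragments, a log2 ratio of −3.81 (−4.19 to −3.46). COL12A1 was 2.15-fold lower, COL6A1 2.22-fold and COL6A3 2.24-fold. The remaining genes compared, COL4A6, COL6A2, COL7A1, COL8A1, COL13A1, COL16A1 and COL17A1, lay between −0.98 and 0.72. In these controls the summed fibroblast or pericyte markers were 112 CPM in R-U87MG and 209 CPM in U87MG, of which PDGFRB alone was 25.2 and 159 CPM. Of the 7 compared, PDGFRB was at least 2-fold lower in R-U87MG, beside 15.0% of all genes. DCN, LUM and PDGFRA were at least 2-fold higher, beside 11.2% of all genes, and the median log2 ratio of the 7 was 0.77. The part of these markers was not tested.

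**Figure D4:**
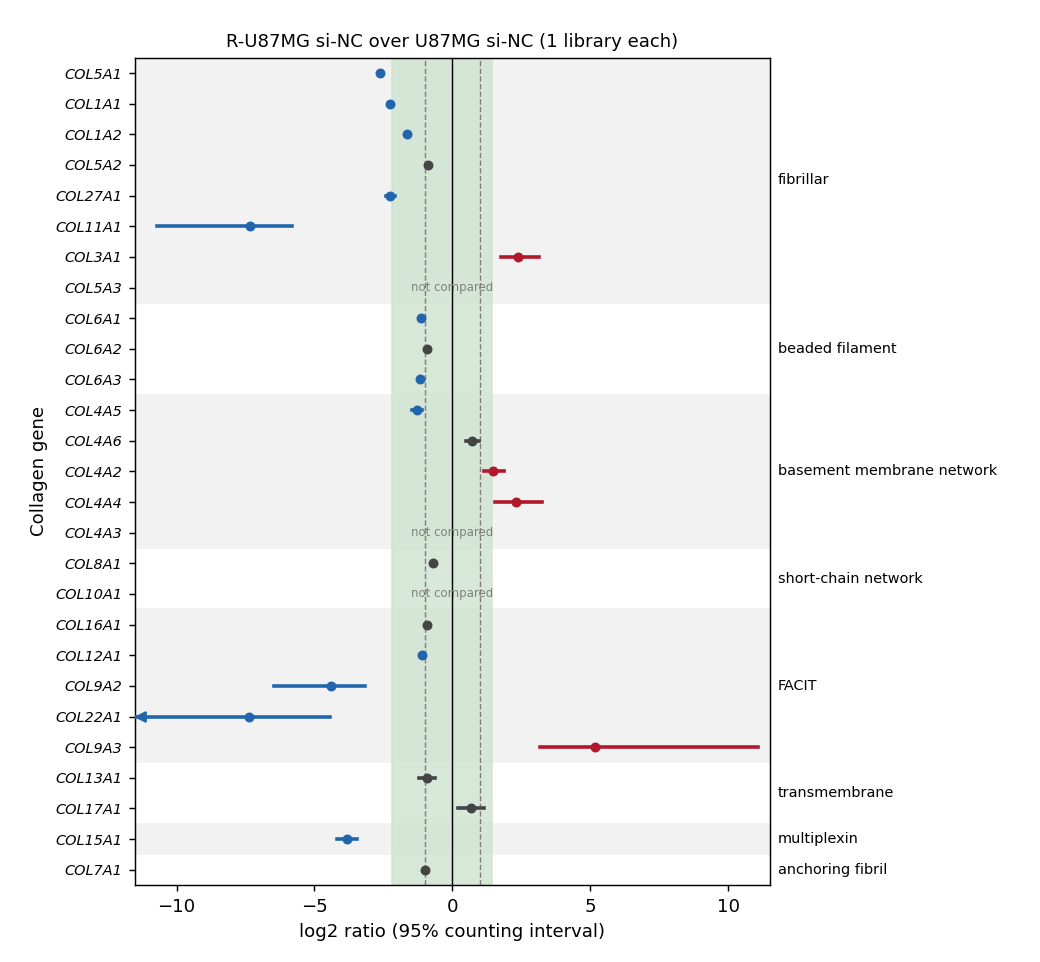
log2 ratio of each collagen gene in R-U87MG si-NC over U87MG si-NC, 1 library each, with 95% counting intervals; the arrow marks an interval with no lower end. Dashed lines mark 2-fold and the green band spans the 5th to 95th percentile of all genes. Most fibrillar genes are left of the dashed line, and COL3A1, COL4A2, COL4A4 and COL9A3 are right of it.

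A collagen chain becomes a fibril only after it is hydroxylated, folded around the chaperone HSP47, exported, trimmed and cross-linked, so 65 genes of that machinery, of collagen receptors and of collagen-cleaving enzymes were read in the same libraries. With si-HDAC6, 0 of 47 compared reached 2-fold in either direction. The shares over all genes were 0.747% lower and 0.694% higher. With si-LINC00461, 6 of 49 were lower and 8 higher, beside 8.17% and 5.42% of all genes. In R-U87MG against U87MG, 17 of 50 were lower and 6 higher, beside 15.0% and 11.2% of all genes.

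With si-LINC00461 the 6 lower genes were 3 of 6 propeptide removal genes compared, 2 of 6 cross-linking genes and 1 of 12 folding and export genes. SERPINH1, which encodes HSP47, had 9738 fragments in si-NC and 3179 in si-LINC00461, a log2 ratio of −1.43 (−1.49 to −1.37). The lysyl oxidase gene LOX, which starts cross-linking, had 43973 and 14028, a log2 ratio of −1.46 (−1.49 to −1.43), and its relative LOXL1 had a log2 ratio of −1.19 (−1.26 to −1.12). The procollagen N-proteinase genes ADAMTS2, ADAMTS3 and ADAMTS14 were 2.59-fold, 2.51-fold and 3.19-fold lower, with intervals that all reached inside 2-fold. ADAMTS14, with 63 and 17 fragments, was under 1 CPM in si-LINC00461 and entered the comparison only through si-NC. LOXL2, the highest cross-linking gene in U87MG at 2505 TPM in si-NC, was 1.21-fold lower. The 8 higher genes were 3 of 4 proteases, 2 of 6 receptors, both proteoglycans compared and 1 of 12 folding and export genes. ITGA2 and ITGA11, collagen-binding integrin chains, were 3.50-fold and 2.38-fold higher, whereas their partner ITGB1, the highest of the receptor list, had a log2 ratio of 0.20. MMP1, the interstitial collagenase, had 82 and 472 fragments, a log2 ratio of 2.71 (2.37 to 3.07). MMP14, a membrane-bound collagenase, and CTSK, a lysosomal collagenase, were 2.07-fold and 2.30-fold higher. MMP2, the highest of the protease list, had a log2 ratio of −0.26. FKBP14, a folding enzyme, and the fibril-bound proteoglycan genes DCN and LUM were 2.49-fold, 5.01-fold and 2.28-fold higher. DCN and LUM are also on the fibroblast or pericyte list above.

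By list, the median log2 ratio with si-LINC00461 was −0.07 for 13 hydroxylases and glycosyltransferases, 0.27 for 12 folding and export genes, −0.71 for 6 propeptide removal genes, −0.39 for 6 cross-linking genes, 0.10 for 6 receptors, 1.13 for 4 proteases and 1.76 for 2 proteoglycans, beside 0.00 for all genes. P4HB, the shared subunit of prolyl 4-hydroxylase, was the highest gene of its list, and HSPA5 of the folding list, with log2 ratios of −0.07 and −0.20. PCOLCE, an enhancer of propeptide removal, and PCOLCE2 had log2 ratios of 0.45 and 0.37.

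Between the lines, the 6 genes of the cross-linking list were at least 2-fold lower in R-U87MG, beside 15.0% of all genes, with a median log2 ratio of −2.92. LOXL4, ADAMTS2 and ITGA11 were under 1 CPM in R-U87MG and ITGA10 in U87MG, and they entered the comparison only through the other line. LOXL2 had 3181 fragments in R-U87MG si-NC and 67727 in U87MG si-NC, a log2 ratio of −4.41 (−4.46 to −4.36), and LOX had 4162 and 43973, a log2 ratio of −3.40 (−3.44 to −3.35). LOXL1, LOXL3 and TGM2 were 4.93-fold, 4.71-fold and 5.46-fold lower, and LOXL4 had 1 and 253 fragments, a log2 ratio of −7.40 (−13.29 to −5.49). The lysyl hydroxylase genes PLOD2 and PLOD1 and the prolyl hydroxylase genes P4HA1, P4HA2 and P3H2 were 5.69-fold, 3.40-fold, 5.62-fold, 3.23-fold and 3.33-fold lower. SERPINH1 had a log2 ratio of −1.58 and FKBP10, another folding enzyme gene, was 2.12-fold lower. ADAMTS2 had 3 fragments against 104, a log2 ratio of −4.90 (−7.41 to −3.52), and ADAMTS3 was 2.44-fold lower. ITGA11 had 5 and 1362 fragments, a log2 ratio of −7.95 (−9.71 to −6.86), and the collagen uptake receptor MRC2 a log2 ratio of −1.48. COLGALT2, MIA2, ITGA10, MMP1, DCN and LUM were 3.44-fold, 2.61-fold, 3.01-fold, 2.05-fold, 2.14-fold and 2.32-fold higher in R-U87MG.

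The collagen genes also share a sequence in their 3′ untranslated regions that the choice of members did not use. The miR-29 family of microRNAs is known for repressing extracellular matrix genes, and miR-485-3p is the microRNA that the study examined with LINC00461. Their mature sequences from RefSeq are shown with the seed, bases 2 to 8, in capitals. The 3 members of the miR-29 family have the same seed.
miR-29a-3p: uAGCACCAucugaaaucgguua
miR-29b-3p: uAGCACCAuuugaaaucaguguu
miR-29c-3p: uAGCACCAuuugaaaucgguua
miR-485-3p: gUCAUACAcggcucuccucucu
A match to the miR-29 seed (TGGTGCT) was found in the 3′ untranslated region of the longest coding transcript in 28 of the 44 collagen genes (63.6%), against 2633 of 19000 other protein-coding genes (13.9%). The regions were of like length, with medians of 1074 and 1044 bases, and held 0.601 and 0.0963 matches per kb. A match to the miR-485-3p seed (TGTATGA) was found in 2 of the 44, COL4A3 and COL19A1, and in 11.7% of the others. Only the miR-29 letters were thus common in the family.

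COL5A1 had 4 miR-29 matches, the most of any member, COL5A3 and COL4A4 had 3 each, and COL6A1 had none. Matches from genes described above are printed with the bases around them, the match in capitals.
COL1A1, chr17:50184562-50184590, minus strand: gagggaatcacTGGTGCTatagaaattga
COL5A1, chr9:134843705-134843733, plus strand: ctgaatgtttgTGGTGCTaatttctgtgt
COL5A3, chr19:9960009-9960037, minus strand: ttcacacctttTGGTGCTacccctcccca
COL6A2, chr21:46132591-46132619, plus strand: caccccgtccaTGGTGCTaagcgggcccg
COL6A3, chr2:237324591-237324619, minus strand: acctatcagtaTGGTGCTaatgtgtctgt
COL6A2 and COL6A3 have 1 match each. The median log2 ratio with si-LINC00461 was 0.15 in the 19 genes with a match, 7 of them below 0, and −0.45 in the 5 without, 4 of them below 0. With si-HDAC6 the medians were 0.01 in 17 genes and 0.08 in 6, and between the lines −1.07 in 18 and −1.01 in 6. The miRNAs themselves were not measured in these libraries, and the search was chosen with the collagen ratios known. The part of miR-29 in the collagen ratios was not tested.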

How the data were processed

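The authors sequenced 4 libraries of total RNA, 1 for each condition, made with a strand-specific kit. Per the labels, reads were handled with bcl2fastq, Trimmomatic 0.36 and HISAT2 on GRCh38.p13, whose chromosome coordinates GENCODE 29 shares. The counting program, its annotation and its use of strand were not given in the sources used here. The deposited values are estimated counts per gene that the authors had multiplied by 1 factor per library (0.869, 1.15, 0.939 and 1.06 for R-U87MG si-NC, R-U87MG si-HDAC6, U87MG si-NC and U87MG si-LINC00461). Dividing by it gave whole fragments, within 0.02, for 94.3% to 94.6% of the values above 0 and for all 44 collagen genes, and the rest were rounded. Counts as deposited had been foreseen, so the recovered fragments took their place. The libraries held 16639551, 12596072, 20027866 and 17777046 fragments.

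Log2 ratios were taken after TMM scaling in edgeR 4.0.16 with a pseudocount of 0.5, over genes with a mean of at least 1 CPM in the 2 libraries compared, and a gene was called at 2-fold. With 1 library per condition no test was run. Intervals are 95% exact binomial (Clopper-Pearson) ones of the share of a gene's fragments in each library. For changes of chain ratios they are exact conditional ones or, for abundant pairs, log-normal ones, in place of the exact ones foreseen. PCR duplicates are not independent molecules, so intervals cover counting error only. TPM used the exon union of GENCODE 29. Ratios were tested on simulated data. Alternatives were DESeq2 1.42.0 size factors, total counts, upper quartile, the authors' scaling, other pseudocounts, filters and folds, thinned libraries and transcript lengths. Every collagen gene with a mean of at least 1 CPM in a comparison is named, and those at least 2-fold changed and the 2 highest of each class are given in full. Of each machinery list, changed members and the highest are named. Members, lists and rules were chosen with earlier results of these data known.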

Additional observations from a re-analysis of the deposited data

How the results depend on the processing

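No median over the collagen genes changed direction. The low-count filter had the widest effect, because without it genes with few fragments entered. Without a filter, 3 collagen genes were lower and 6 higher with si-HDAC6, 4 lower and 16 higher with si-LINC00461 (median log2 ratio 0.32), and 19 lower and 9 higher in R-U87MG against U87MG. With a mean of at least 5 CPM, 0 were lower with si-LINC00461 and 1 was higher in R-U87MG. A pseudocount of 5 left 1 lower with si-LINC00461, as did thinned libraries and an interval wholly beyond 2-fold. At 1.5-fold, 2 were lower with si-HDAC6 and 4 with si-LINC00461. At 4-fold, 0 were lower and 2 higher with si-LINC00461, and 7 were lower in R-U87MG. Shares of all genes at these settings are not given. The counts therefore describe how the calls depend on the setting and are no result about the family. With total counts the median in R-U87MG against U87MG was −0.78. By the longest coding transcript, the level ratios in U87MG si-NC were 0.868 for COL1A1/COL1A2, 3.46 for COL4A5/COL4A6, 6.70 for COL5A1/COL5A2, 0.831 for COL6A1/COL6A2 and 1.01 for COL6A3/COL6A1. The order of the chains thus changed with the length used for COL1A1/COL1A2, COL6A1/COL6A2 and COL6A3/COL6A1, the last 2 being near 1 by one of the lengths. The summed basement membrane genes in R-U87MG against U87MG had a log2 ratio of −0.08, and 0.19 with total counts. Of 473 ratios of single genes under other settings, 33 moved by more than their counting interval and 2 changed sign, COL8A1 (0.01 to −0.01) and COL4A6 (0.01 to −0.01) with si-HDAC6 in thinned libraries, both near 0. None of at least 2-fold changed sign. No paired analysis was possible because each condition was 1 library, and for the same reason no library could be left out. The authors' scaling could not be applied between the lines, whose pairs were scaled separately. Depth limits the genes with few fragments: with 1 library per condition, no ratio here can be set against the spread between cultures.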
